A study of Homo sapiens with 6 samples.

Results

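The folliculin, Rag GTPase and MiT/TFE genes are 10 genes of the lysosomal nutrient-sensing branch of mTORC1 signaling, grouped by function by a rule that uses no measured value, though with earlier results of these data known. They comprised FLCN, FNIP1 and FNIP2 (folliculin and its binding partners), RRAGA, RRAGB, RRAGC and RRAGD (the Rag GTPases) and TFEB, TFE3 and MITF (the MiT/TFE transcription factors). Each symbol matched 1 of the 61552 gene identifiers in the count tables, and all 10 passed the expression filter. The cells were MDA-MB-231, an established human line of triple-negative breast cancer, and their polyA RNA was sequenced from both ends. The control group was given the DMSO vehicle for 24 h and the treated group 10 μM VNLG-152R for 24 h, with 3 samples in each. VNLG-152R is described by the study as a degrader of the kinases MNK1 and MNK2, which phosphorylate a cap-binding factor of translation. The data cover 1 cell line, 1 dose and 1 time, and no source used here says whether the 3 samples of a group were separate experiments. The p-values therefore measure only how these samples varied, which may be technical variation.

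Folliculin, the product of FLCN, forms a complex with FNIP1 or FNIP2 that makes RagC and RagD hydrolyze GTP. A Rag dimer pairs RagA or RagB with RagC or RagD, and at the lysosome it brings in mTORC1 when amino acids are plentiful. The same RagC or RagD presents TFEB and TFE3 to mTORC1, which phosphorylates them and keeps them in the cytoplasm. Unphosphorylated MiT/TFE factors enter the nucleus, bind E-box sequences and turn on genes of lysosomes and autophagy, and FLCN and RRAGD are known to be among their targets.

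Libraries held from 60122936 to 68583224 gene-assigned counts for the vehicle and from 69923839 to 82151816 for VNLG-152R. Every treated library was thus deeper than every control. Levels are given as CPM, counts scaled to library size after TMM normalization. Calls, as higher or lower, needed an adjusted p under 0.05 in the quasi-likelihood test of edgeR over 17084 genes. Of the line's markers, VIM was at 5079 CPM in controls, CD44 at 696 CPM and EGFR at 267 CPM. ESR1 had at most 8 counts in any library, and PGR was at 0.371 CPM in controls. The leukocyte genes PTPRC and CD3E had at most 2 counts in any library and the endothelial genes CDH5 and VWF at most 13, while PECAM1 was at 23.1 CPM in controls. VIM was lower with VNLG-152R (log2 fold change -0.39, edgeR adjusted p = 0.0472), a call that held in 1 of 6 fits with a library left out (adjusted p up to 0.174).

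Promoter sequence was examined because MiT/TFE factors bind E-boxes and 3 of the 10 genes were called higher. RefSeq windows from 250 bases before to 50 bases after the annotated start were at hand for 8 of the 10 genes, all but RRAGA and RRAGD. The E-box core CACGTG, which reads the same on both strands, was present in windows of 3 of the 8 genes, namely FNIP1, RRAGB and RRAGC. Over all genes with a window, 8.77% held it (7.26% of the 35116 windows). Printed are the bases of the window that lie before both the RefSeq and the GENCODE start, for these 3 genes and for FLCN, which rose without a match in its window. They run 5′ to 3′ along the gene in GRCh38.p14, with the E-box core in capitals. They lie at chr5:131797064-131797267 on the minus strand for FNIP1, at chrX:55717499-55717738 on the plus strand for RRAGB, at chr1:38859824-38860022 on the minus strand for RRAGC and at chr17:17237189-17237418 on the minus strand for FLCN.
FNIP1: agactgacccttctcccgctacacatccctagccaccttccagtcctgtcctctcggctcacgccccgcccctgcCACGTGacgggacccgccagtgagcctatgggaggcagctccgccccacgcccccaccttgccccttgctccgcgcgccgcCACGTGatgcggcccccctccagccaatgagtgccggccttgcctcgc
RRAGB: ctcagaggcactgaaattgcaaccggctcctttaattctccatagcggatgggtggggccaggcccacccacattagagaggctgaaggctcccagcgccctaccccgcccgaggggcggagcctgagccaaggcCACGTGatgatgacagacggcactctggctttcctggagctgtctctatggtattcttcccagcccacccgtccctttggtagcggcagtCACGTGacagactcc
RRAGC: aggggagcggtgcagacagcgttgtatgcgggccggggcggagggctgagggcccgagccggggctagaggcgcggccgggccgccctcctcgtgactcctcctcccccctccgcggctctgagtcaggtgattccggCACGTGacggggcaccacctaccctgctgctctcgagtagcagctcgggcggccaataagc
FLCN: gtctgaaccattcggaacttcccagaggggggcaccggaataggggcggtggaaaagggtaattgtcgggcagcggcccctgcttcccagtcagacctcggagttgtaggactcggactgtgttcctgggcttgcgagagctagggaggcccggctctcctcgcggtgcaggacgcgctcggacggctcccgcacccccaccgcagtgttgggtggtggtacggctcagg

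Counted from the RefSeq start, the matches of FNIP1 began at -175 and -94. Those of RRAGB began at -115 and -25, and 1 more, not printed, at base 8 of the transcript. RRAGC had 1 match, at -112. The longer palindrome TCACGTGA, which contains the core, occurred among the 8 genes in RRAGB alone, and in 1.18% of all genes with a window. A related M-box core, TCATGTG, sought on both strands, was found once, in a window of FNIP2, against 3.59% of all genes. Among the 8 genes with a window, the E-box core was present in 1 of 2 that were called higher and in 2 of 6 that were not called. A match of letters is a description and does not show binding.

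Folliculin and its partner FNIP1 were higher with VNLG-152R, whereas FNIP2 did not pass the test. FLCN (ENSG00000154803) lies on chromosome 17 from 17212212 to 17237188 in GRCh38. Its level was 37.0, 34.6 and 38.7 CPM in vehicle control replicates 1 to 3 and 48.6, 51.6 and 50.7 CPM in VNLG-152R replicates 1 to 3. All 3 treated libraries were above all 3 controls, and the gap between the groups was wider than the range within either. In bulk RNA such a difference cannot be told apart from a change in the mix of cells, nor fewer cells of a kind from less RNA per cell. The control mean was 36.8 ± 2.07 CPM and the treated mean 50.3 ± 1.55 CPM (SD, 3 libraries each), and the log2 fold change was 0.45 (standard error, SE, 0.08, 95% interval 0.27 to 0.63, edgeR adjusted p = 0.00876). The call held with each library left out in turn, with log2 fold changes of 0.41 to 0.49 and an adjusted p of at most 0.049, without vehicle control replicate 2. Of its exons, 11.9% are shared with another annotated gene on the same strand, AC055811.2, and read pairs that fit both were not counted.

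FNIP1, which joins folliculin in the complex and also binds the energy sensor AMPK, showed the largest log2 fold change of the 10 genes. FNIP1 (ENSG00000217128) lies on chromosome 5 from 131641714 to 131797063. The controls had 43.8, 40.5 and 44.0 CPM and the treated libraries 59.2, 67.6 and 70.3 CPM. The treated libraries were all higher, and VNLG-152R replicate 1 was the lowest of them. The log2 fold change was 0.62 (SE 0.09, 95% interval 0.42 to 0.81, edgeR adjusted p = 0.00199), or 1.54-fold. It was 0.57 to 0.69 with each library left out, and each of these fits called it.

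FNIP2 (ENSG00000052795, chromosome 4, 158769138 to 158908049), the other folliculin partner, was at 22.2, 22.6 and 19.1 CPM in controls and at 23.4, 23.7 and 24.5 CPM with VNLG-152R. The groups did not overlap, but the distance between them was small beside the spread of the controls. The log2 fold change was 0.16 (95% interval -0.03 to 0.36, edgeR adjusted p = 0.313). The ratio of FNIP1 to FNIP2 within a library, per base of exon, needs no normalization between libraries. It was 2.70, 2.45 and 3.15 in controls and 3.47, 3.9 and 3.93 with VNLG-152R, higher in every treated library. The mean log2 ratio differed by 0.45, and an exact two-sided permutation test of the 3 against 3 libraries gave p = 0.10, the smallest it can give (0.25 after adjustment over 5 ratios chosen after the values were seen).

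**Figure D1:**
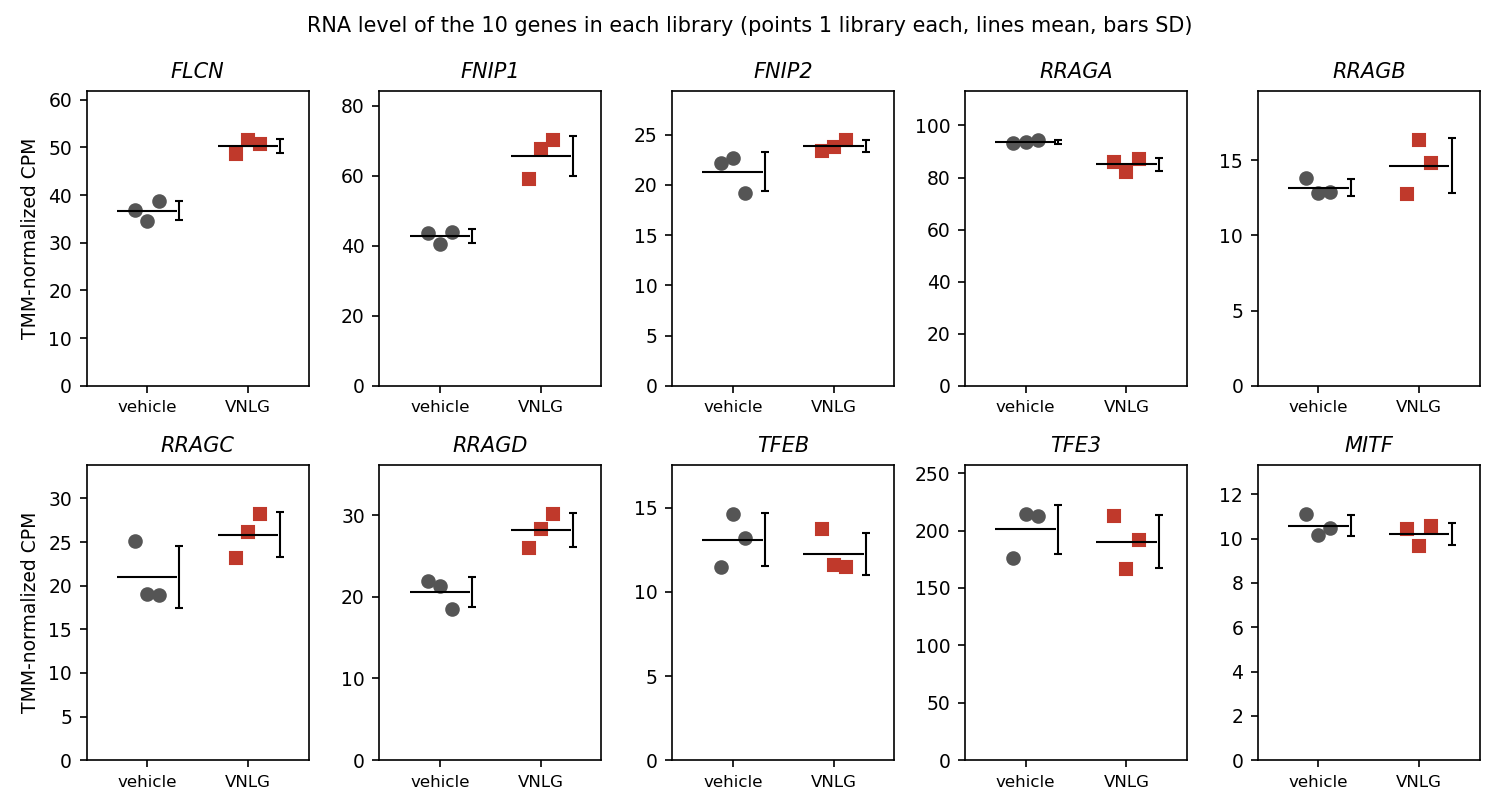
TMM-normalized CPM (y axis, from 0) of each of the 10 genes in the 3 vehicle control libraries (grey circles) and the 3 VNLG-152R libraries (red squares), with group means as lines and SD as bars. The treated libraries of FLCN, FNIP1, FNIP2 and RRAGD lie above all controls, those of RRAGA below all controls, and the groups of TFEB, TFE3 and MITF overlap.

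Of the Rag GTPases, RRAGD was called higher and the other genes were not called. RRAGD encodes the partner of RagA or RagB that is most closely tied to TFEB and TFE3, and the gene (ENSG00000025039) lies on chromosome 6 from 89364636 to 89412270. It was at 22.0, 21.4 and 18.5 CPM in controls and at 26.0, 28.2 and 30.1 CPM with VNLG-152R. Every treated library was above every control, with vehicle control replicate 3 the lowest and VNLG-152R replicate 3 the highest. The log2 fold change was 0.45 (SE 0.10, 95% interval 0.24 to 0.66, edgeR adjusted p = 0.0206). It kept its direction but did not pass without vehicle control replicate 3 (0.38, adjusted p = 0.124) or without VNLG-152R replicate 3 (0.40, adjusted p = 0.0844), and passed when any of the other 4 libraries was left out.

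RRAGC (ENSG00000116954, chromosome 1, 38838198 to 38859823), the close relative of RRAGD, was at 25.1, 19.1 and 18.9 CPM in controls and at 23.1, 26.2 and 28.2 CPM with VNLG-152R. Vehicle control replicate 1 stood above the other controls and above VNLG-152R replicate 1, so the groups overlapped. The log2 fold change was 0.30 (95% interval 0.04 to 0.56, edgeR adjusted p = 0.161). Without vehicle control replicate 1 it was 0.45 and just passed (adjusted p = 0.0495). Of the exons of RRAGC, 22.9% are shared with the same-strand gene AL139260.2. The ratio of RRAGD to RRAGC was 0.893 to 1.14 in controls against 1.09 to 1.15 in treated libraries, which overlap (exact two-sided permutation test, p = 0.30, adjusted 0.375).

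RRAGA and RRAGB encode the alternative partners on the other side of the Rag dimer. RRAGA (ENSG00000155876, chromosome 9, 19049395 to 19050983) was at 93.2, 93.5 and 94.5 CPM in controls and at 85.9, 82.1 and 87.1 CPM with VNLG-152R. All treated libraries were lower than all controls, by a small margin. Its log2 fold change of -0.14 did not pass (95% interval -0.31 to 0.02, edgeR adjusted p = 0.301), and was -0.07 after a correction for exon length. RRAGB (ENSG00000083750, chromosome X, 55717739 to 55758774) was at 13.8, 12.8 and 12.9 CPM in controls and at 12.7, 16.4 and 14.8 CPM with VNLG-152R, and VNLG-152R replicate 1 lay below all controls. Its log2 fold change was 0.15 (95% interval -0.08 to 0.38, edgeR adjusted p = 0.417), and 0.07 without VNLG-152R replicate 2. Although the products are close relatives, no stretch of 100 bases, the read length, was identical between annotated transcripts of RRAGA and RRAGB. The ratio of RRAGA to RRAGB was 11.6 to 12.5 in controls against 8.60 to 11.6 in treated libraries (exact two-sided permutation test, p = 0.20, adjusted 0.333).

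The MiT/TFE factors, which act downstream of the Rag GTPases, had no gene called by edgeR, DESeq2 or limma-voom and 0 with an unadjusted p under 0.05 in edgeR. TFE3 (ENSG00000068323, chromosome X, 49028726 to 49043486), the most abundant of the family here, was at 176, 214 and 213 CPM in controls and at 213, 166 and 192 CPM with VNLG-152R. The groups overlapped widely, and the highest library of each was at nearly the same level. The log2 fold change was -0.08 (95% interval -0.31 to 0.15, edgeR adjusted p = 0.70), and its sign turned without VNLG-152R replicate 2 (0.01). TFEB (ENSG00000112561, chromosome 6, 41683978 to 41736259) was at 11.5, 14.6 and 13.2 CPM in controls and at 13.7, 11.6 and 11.5 CPM with VNLG-152R, again overlapping. Its log2 fold change was -0.10 (95% interval -0.35 to 0.15, edgeR adjusted p = 0.646). MITF (ENSG00000187098, chromosome 3, 69739435 to 69968337), best known as the melanocyte regulator, was at 11.1, 10.2 and 10.5 CPM in controls and at 10.4, 9.65 and 10.6 CPM with VNLG-152R. Its log2 fold change was -0.05 (95% interval -0.26 to 0.16, edgeR adjusted p = 0.786). For all 3 factors the interval reached no higher than 0.16 and no lower than -0.35 on the log2 scale. The ratio of TFE3 to TFEB was 19.3 to 21.2 in controls against 18.9 to 22.1 in treated libraries (exact two-sided permutation test, p = 0.90, also after adjustment). Counts per gene do not show which MITF or TFEB transcript was made, nor where the proteins were in the cell.

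**Figure D2:**
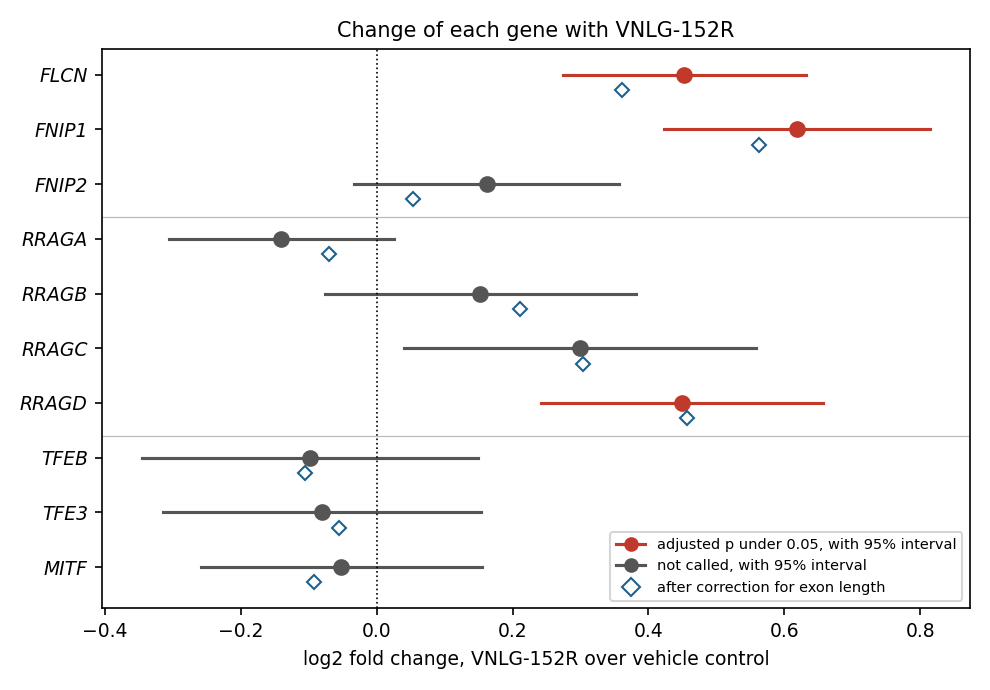
Log2 fold change of VNLG-152R over vehicle control (x axis) for each of the 10 genes, with 95% intervals; red marks an adjusted p under 0.05 and open diamonds the value after correction for exon length. FNIP1, FLCN and RRAGD are red, at 0.62, 0.45 and 0.45, and all 3 MiT/TFE factors lie just below 0 with intervals across it.

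In all, 3 of the 10 genes were called higher and 0 lower. Over the 17084 tested genes, 3.76% were called higher and 1.43% lower, or 5.19% in either direction. The groups did not overlap in 4 of the 10 genes with the treated libraries higher and in 1 with them lower, against 15.1% and 13.4% of all tested genes. With edgeR, 4 of the 10 had an unadjusted p under 0.05, those called and RRAGC, against 22.6% of all tested genes, and DESeq2 and limma-voom made the same 3 calls with 0 lower. The median log2 fold change was 0.16 over the 10 genes and -0.0024 over all tested genes. Across all genes with at least 1 CPM, log2 fold changes increased with exon length (Spearman's rho 0.33 over 12847 genes, which are not independent replicates). The called genes have 9786 (FLCN), 7942 (FNIP1) and 5072 (RRAGD) bases of merged exon, and RRAGA has 1589 bases. After correction for exon length the log2 fold changes were 0.36 for FLCN (adjusted p = 0.0385), 0.56 for FNIP1 (adjusted p = 0.00522) and 0.46 for RRAGD (adjusted p = 0.0227), by edgeR, and all 3 passed. The value of FNIP2 was 0.05 with this correction.

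**Figure D3:**
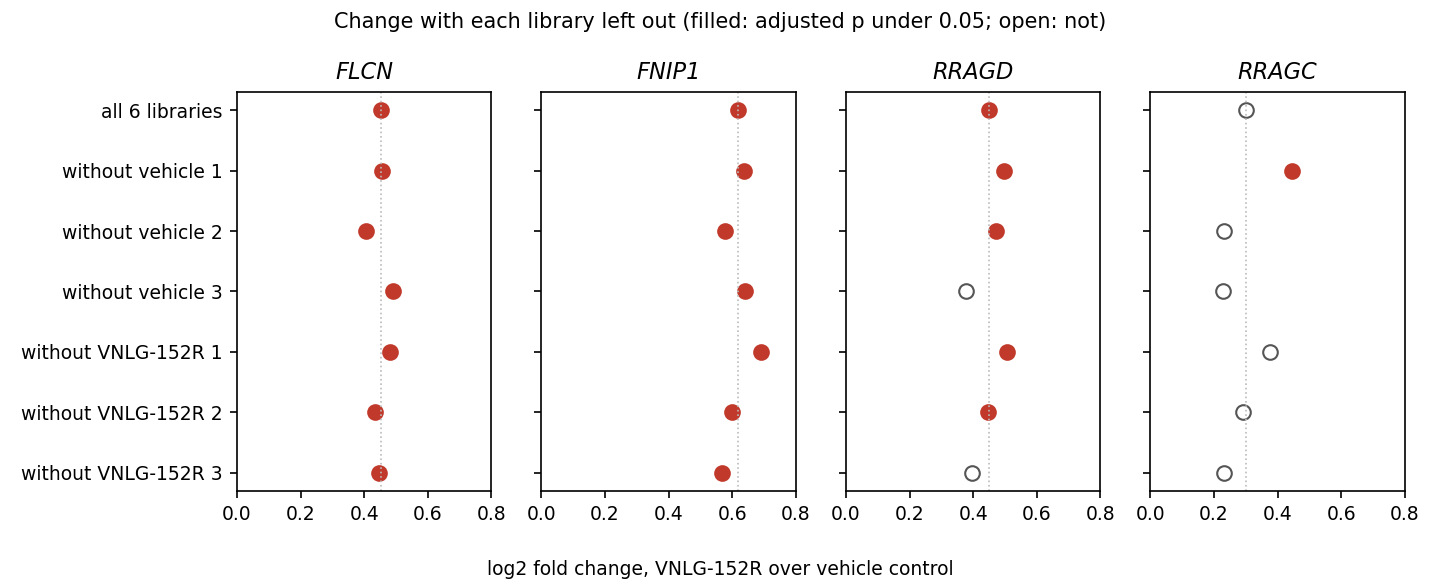
Log2 fold change (x axis) of FLCN, FNIP1, RRAGD and RRAGC with all 6 libraries and with each library left out (rows), filled red where the adjusted p was under 0.05 and open where it was not. FLCN and FNIP1 are filled in every row, RRAGD is open without vehicle control replicate 3 or VNLG-152R replicate 3, and RRAGC is filled only without vehicle control replicate 1.

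Levels differed far more between the 10 genes than between the groups. In controls, RRAGA had 59.0 CPM per kilobase of merged exon and TFE3 47.0, and the next gene, FNIP1, had 5.39. The values per kilobase were 4.84 for RRAGB, 4.07 for RRAGC, 4.07 for RRAGD, 3.76 for FLCN, 2.32 for TFEB, 1.96 for FNIP2 and 1.47 for MITF. The control libraries of RRAGB, RRAGC, RRAGD and FLCN overlapped with those of at least 1 neighbor in this order, as did those of TFEB and FNIP2. The order in the middle depends on the length used. With the principal annotated transcript, a length chosen after the data were seen, FLCN moved from rank 7 to rank 4, at 10.1 CPM per kilobase, and RRAGD from 6 to 8, at 4.21 CPM per kilobase. RRAGA (59.0) and TFE3 (58.9) then had overlapping controls, and FNIP1 stayed in rank 3 at 11.1. On either length TFE3 was the most abundant of the MiT/TFE factors and MITF the lowest of the 10.

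The melanocyte genes that MITF is best known to control gave almost no signal. TYR, MLANA and TRPM1 had 0 counts in every library, and TYRP1, DCT, SLC45A2 and OCA2 had at most 3. A count of 0 allows a level of up to 0.0499 CPM in the shallowest library (3 counts, counting error only). PMEL, a melanosome protein, had 2.33 CPM in both groups, and GPR143, a melanosome receptor, had 1.25 CPM in controls and 1.61 CPM with VNLG-152R (edgeR adjusted p = 0.261).

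Of the other genes of the pathway, 86 were listed, 81 were tested, and 5 were called higher and 0 lower (6.17% of those tested, against 5.19% of all genes). The count of 5 was 2 without vehicle control replicate 1 or 3, 3 without vehicle control replicate 2 and 1 without VNLG-152R replicate 3. All 5 belong to the list of known MiT/TFE targets. In the Ragulator, the scaffold that anchors the Rag GTPases to the lysosome, and its amino acid transporter SLC38A9, 0 of 6 genes were called and the median log2 fold change was -0.06. LAMTOR5 and LAMTOR1, its most abundant genes, had log2 fold changes of 0.03 and -0.20. GATOR1, the negative regulator of RagA and RagB, and its anchor KICSTOR had 0 of 7 called, with -0.12 for NPRL3. GATOR2, which restrains GATOR1, had 0 of 5 called, with -0.13 for SEC13 and -0.18 for SEH1L. Among the amino acid sensors, 0 of 4 tested genes were called, with 0.39 for SESN3 (edgeR adjusted p = 0.0522) and 0.23 for CASTOR2.

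The C9orf72-SMCR8 complex, whose fold resembles that of folliculin and FNIP, had 0 of 3 genes called, with log2 fold changes of -0.15 for WDR41 and 0.23 for C9orf72. AMPK, the energy sensor that phosphorylates FNIP1, and its activator LKB1 had 0 of 7 tested genes called, with -0.10 for STK11 and -0.08 for PRKAA1. Of 13 genes that set where TFEB and TFE3 reside, 0 were called. The nuclear exporter XPO1 had a log2 fold change of -0.0035 and MTOR, the kinase of mTORC1, one of 0.15. Over these 7 lists without a call by edgeR, 7 of 45 tested genes had an unadjusted p under 0.05 (against 22.6% of all tested genes), limma-voom called 0 genes, and DESeq2 called 1, an amino acid sensor.

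**Figure D4:**
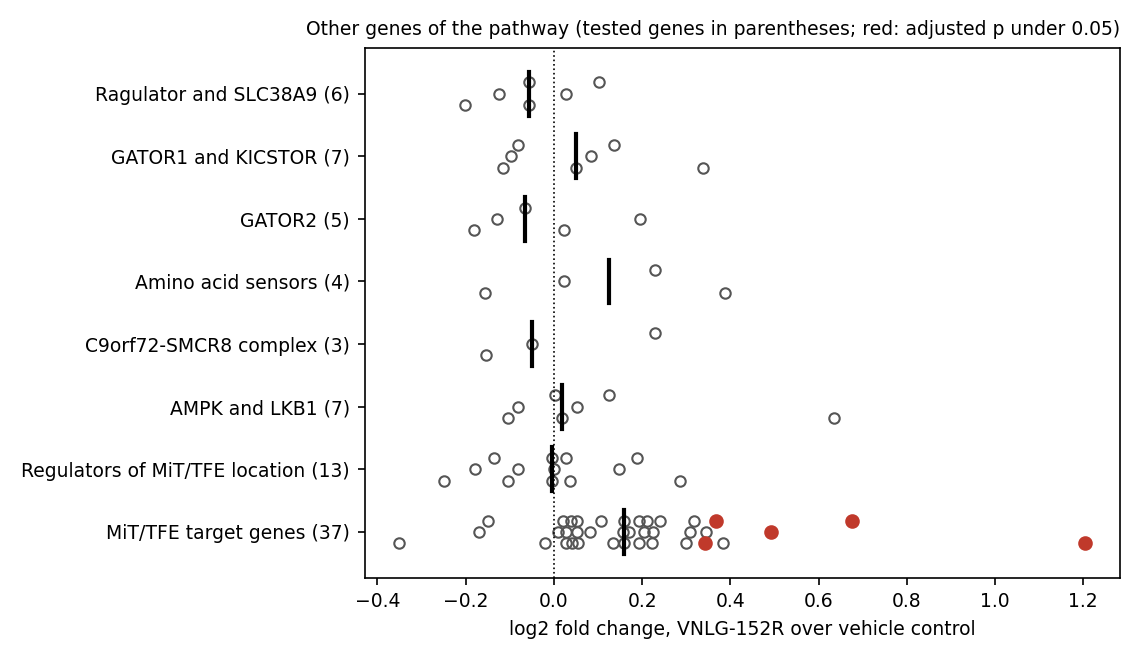
Log2 fold change (x axis) of every tested gene in 8 lists of other genes of the pathway, with the list's median as a black bar and the number of tested genes in parentheses. The 5 red points, with an adjusted p under 0.05, all stand in the row of MiT/TFE targets, whose median of 0.16 is right of 0.

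Among the known MiT/TFE targets, genes of lysosomes and autophagy with a few others, 37 of 39 were tested and 5 rose (13.5% of those tested, against 3.76% of all tested genes called higher). Their median log2 fold change was 0.16 against -0.0024 over all tested genes. In 17 of the 37 every treated library was above every control, and in 1 every treated library was below, against 15.1% and 13.4% of all tested genes. Neither the median nor these shares were corrected for exon length, with which log2 fold changes increased over all genes. ATP6V0D2 encodes a subunit of the lysosomal proton pump, and its raw counts were 55, 71 and 60 in controls against 132, 181 and 207 in treated libraries. In CPM this was 0.881 to 1.18 in controls against 1.95 to 2.50 in treated libraries, with no overlap. Its log2 fold change was 1.21 (SE 0.19, edgeR adjusted p = 0.00336), and it passed with each library left out. An antisense gene lies over 16.7% of its exons. ATP6V0D1, a more abundant pump subunit at 84.2 CPM in controls, was the target with every treated library below every control. Its log2 fold change of -0.15 did not pass (edgeR adjusted p = 0.354). The other pump subunits of the list, ATP6V0E1, ATP6V1A, ATP6V1B2, ATP6V1C1 and ATP6V1H, had log2 fold changes of 0.02 to 0.16 and were not called.

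WIPI1, an early autophagosome protein, was at 22.7 to 28.3 CPM in controls and at 34.2 to 38.8 CPM with VNLG-152R, a log2 fold change of 0.49 (edgeR adjusted p = 0.0146). The groups did not overlap, and 28.1% of its exons lie under antisense genes. PPARGC1A, a coactivator of mitochondrial genes, rose on average from 3.87 ± 0.60 to 6.18 ± 0.67 CPM (SD, 3 libraries each), or by 0.68 on the log2 scale (edgeR adjusted p = 0.0197). PSAP, the precursor of the saposins, and ASAH1, the lysosomal ceramidase, had log2 fold changes of 0.37 (adjusted p = 0.0391) and 0.34 (adjusted p = 0.0398). These calls were less stable than that of ATP6V0D2. WIPI1 did not pass without vehicle control replicate 3 or VNLG-152R replicate 3 (adjusted p up to 0.0668), nor PPARGC1A without vehicle control replicate 1 or VNLG-152R replicate 3 (up to 0.0828). PSAP passed in 0 of the 6 fits with a library left out (up to 0.161) and ASAH1 in 1 of the 6, without VNLG-152R replicate 1 (up to 0.194). ASAH1 also did not pass after correction for exon length (0.17, adjusted p = 0.303). CTSD, after PSAP the most abundant gene of the list, was at -0.17 on the log2 scale (edgeR adjusted p = 0.553). Of the exons of CTSD, 41.7% are shared with the same-strand gene AC068580.4 and 15.8% lie under an antisense gene. Of 21 targets with a promoter window, 14 held the E-box core (66.7%, against 8.77% of all genes), though such motifs are part of how these targets were first recognized.

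FNIP1 was the member with the smallest p. Among genes with a symbol, those whose pattern over the 6 libraries lay closest to that of FNIP1 were FDPS, ANXA10, ACAT2, DNAH12 and NMRAL2P. Closeness was the root mean square distance between log2 CPM values, each gene centered on its own mean, and ran from 0.0452 for FDPS to 0.0797 for NMRAL2P. FDPS and ACAT2 are enzymes of sterol and acetyl-CoA metabolism and rose, with log2 fold changes of 0.63 and 0.58 (edgeR adjusted p = 0.00116 and 0.0117). ANXA10, DNAH12 and NMRAL2P were at or under 1.43 CPM in controls and did not pass. Among the 10 genes, FLCN was closest to FNIP1 (0.0989), followed by RRAGD (0.131) and RRAGC (0.199). The distance is a description over 6 libraries and says nothing of shared control. The ratio of FLCN to FNIP1 was 0.685 to 0.714 in controls against 0.585 to 0.666 in treated libraries (exact two-sided permutation test, p = 0.10, the smallest possible, and 0.25 after adjustment over 5 ratios).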

How the data were processed

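The authors sequenced polyA RNA of 6 MDA-MB-231 samples, grouped here by their labels, as directional libraries with paired reads. They deposited unnormalized counts by Ensembl gene, 1 table a sample. The submitters' processing notes name HISAT, HTSeq, DESeq and the build GRCh38, while their versions and roles, the annotation release and the strand option used were not given in the sources used here. Pairs in no gene (2.63% to 5.05%), ambiguous between genes (4.81% to 5.16%) or not aligned uniquely (7.81% to 8.12%) were left out of totals. Symbols came from a table of gene records, which matched 61399 of 61552 identifiers. Coordinates, exon lengths and overlaps came from GENCODE 29 on GRCh38, and promoter windows from RefSeq on GRCh38.p14.

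Counts were compared in R 4.3.3 with edgeR 4.0.16 (quasi-likelihood test, TMM, filterByExpr, 17084 genes, biological coefficient of variation 0.105, 4 residual degrees of freedom, checked on simulated counts). Adjustment was by Benjamini and Hochberg's method, across every tested gene. The standard error is the absolute log2 fold change over the square root of F, and 95% intervals use the total degrees of freedom of the fit. Depth limits the low genes, and intervals for counts of 0 cover counting error only. Alternatives were RLE factors, library size only, other filters and thresholds, DESeq2 1.42.0, limma-voom (limma 3.58.1), a replicate block, thinning to the shallowest library (seed 1), a lowess correction (span 0.3) for merged exon length, and leaving out each library.

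The members and lists were chosen with earlier results of these data known, so list counts are descriptions. The text names every member, and the called genes and the 2 most abundant genes of each list. It also names the 5 genes with a symbol that lay closest in pattern to the member with the smallest p. Pump subunits among the targets are named as well, a choice made after their values were seen. A few listed genes are not reported here. The 5 ratios within libraries were chosen after their values were seen.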

Additional observations from a re-analysis of the deposited data

Results flagged for a closer look

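The share of read pairs that fell in no annotated gene, a class outside every comparison here, was above the controls in each treated library. It was 3.52%, 5.05% and 3.36% in VNLG-152R replicates 1 to 3, against 2.63% to 3.17% in vehicle controls. VNLG-152R replicate 2 had the highest share. Without that library the log2 fold changes were 0.44 for FLCN, 0.60 for FNIP1 and 0.45 for RRAGD, and each passed (edgeR adjusted p = 0.0258, 0.00642 and 0.0445).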

How the results depend on the processing

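FNIP1 was called under every alternative run, with log2 fold changes of 0.56 to 0.69. FLCN (0.36 to 0.49) and RRAGD (0.38 to 0.51) kept their direction in all of them. Deviations of same-numbered libraries from their group means had correlations of -0.19, -0.17 and -0.11. With means over 3 libraries, such values cannot decide whether equal numbers share a culture or day, which the labels do not say. With the replicate block, 1 of the 10 genes was called, FNIP1, and FLCN (adjusted p = 0.0507) and RRAGD (0.0736) were not. The block with length correction also left 1. TFE3 ranged from -0.17 to 0.01 (0.0089 without VNLG-152R replicate 2) with each library left out. Alternatives were scored gene by gene only for the 10 genes and for the other listed genes, markers included, that the main fit called. Of these values, 218 kept direction and side of the threshold, 36 no longer passed, 1 newly passed and 1 turned. Listed genes not called in the main fit were not scored in this way.

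For other pathway genes, 5 called higher became 8 with no filter, 3 with the block, 2 with block and length correction, 1 at an adjusted p under 0.01 and 8 under 0.10, and 1 to 7 with each library left out. The 0 called lower became 1 with no filter and ranged from 0 to 1 with each library left out. Over all genes, 642 higher and 245 lower became 1056 and 483 with no filter, 310 and 87 with the block, 205 and 56 with block and length correction, 210 and 44 at 0.01, and 1151 and 578 at 0.10. DESeq2 called 537 lower. With each library left out, 220 to 601 were higher and 44 to 347 lower, both lowest without vehicle control replicate 3. The cause was not tested. Thinning to the shallowest library left 3 of the 10 genes called, and 630 higher and 233 lower over all genes. Depth limits genes with few counts.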

Other observations

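TFEC, the remaining gene of the MiT/TFE family, was under the expression filter, with 1, 3 and 0 counts in vehicle controls and 2, 1 and 3 with VNLG-152R.

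Some genes of the pathway were listed at or near 0 although most cells use them. SESN2, a stress-induced leucine sensor, had 0 counts in all 6 libraries. NEU1, a lysosomal sialidase, had 1 count in VNLG-152R replicate 2 and 0 elsewhere, and VPS11, a subunit of the lysosomal tethering complex, had 0 counts in controls and 1 in each treated library. PRKAG1, an AMPK subunit, had 20 to 26 counts in controls and 37 to 57 with VNLG-152R. The cause was not tested, and the zeros are not read as absence from the cells.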
